A study of Homo sapiens with 4 samples.

Results

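The 31 genes described here carry out DNA replication, G1/S and G2/M control, spindle assembly, anaphase and cytokinesis, or are targets of p53. They were chosen by name from the 858 genes that the authors' deposited table holds for the MiaPaca-2 line, a long-established line from a human pancreatic carcinoma, after short hairpin RNA knockdown. The comparison was between 2 samples with a hairpin against PRMT1 (shPRMT1) and 2 samples with a non-targeting hairpin (shNTC), all grown in the same medium with no drug named in the labels. PRMT1 is the main enzyme that places asymmetric dimethylarginine on proteins. The labels name no other hairpin, no rescue and no separate cultures, so an effect of the hairpin on other transcripts cannot be told apart from loss of PRMT1, and the p-values cover only the variation among these samples, which may be technical. Single-sample values were not analysed here, so depth is unknown, no error stands beside a fold change, and a change in the share of cells in a cycle phase cannot be told apart from a change of transcript per cell.

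Every gene of the authors' deposited table has an unadjusted p under 0.05, so all 31 genes carry that selection. Their fold changes and p-values are therefore given as descriptions, without a further test. The adjusted p-values imply that 7640 genes were tested, of which 11.2% are in the authors' deposited table, 6.56% lower in shPRMT1 and 4.67% higher. At an adjusted p under 0.05 the share called was 0.0131%, a single gene, and 0 of the 31 genes passed; their adjusted p in the authors' deposited table lay between 0.308 and 0.442, at unadjusted p-values between 0.000283 and 0.0482. Just inside the threshold of 0.05 stood CDKN1B (p = 0.0482), MYBL2 (p = 0.0463) and CDCA7L (p = 0.0457) in the authors' deposited table, and genes just outside it were not analysed here. PRMT1 itself had the value 0.356 as a ratio in the authors' deposited table, and this value was used to read ratios as shPRMT1 over shNTC, since the numerator is not named. "Lower" and "higher" below mean the side of 1 on which a gene is listed.

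A dividing cell licenses its replication origins in G1, fires them in S phase under the kinases CDK2 and CDC7, enters mitosis when CDC25 phosphatases overcome WEE1 and activate CDK1, and leaves mitosis when the anaphase-promoting complex (APC/C) marks cyclins and securin for destruction. Genes of G1/S are largely switched by E2F factors, and genes of G2 and mitosis by the DREAM and MYB-MuvB complexes, which bind the cell cycle genes homology region (CHR), often with the CCAAT-binding factor NF-Y beside it. p53 halts the cycle or starts apoptosis by inducing a set of targets, among them its own inhibitor MDM2.

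Stretches upstream of RefSeq transcript starts (GRCh38.p14) are printed here for 11 of the genes, listed lower and higher, to show promoter elements known to time the expression of such genes. Only bases outside annotated exons are shown, 5′ to 3′ on the gene's strand, and the stretches are not the files' own coordinates, which use hg19. The first 3 belong to replication genes with an E2F match (capitals, TTTCCCGC, TTTCGCGC, TTTGCCGC or TTTGGCGC on either strand) and, in GMNN, also CCAAT boxes in capitals. GMNN holds the E2F match between 2 inverted CCAAT boxes, CDC7 holds a pair in opposite orientation, and in TIPIN the pair overlaps to form a palindrome.
GMNN (chr6:24775293-24775412, plus strand): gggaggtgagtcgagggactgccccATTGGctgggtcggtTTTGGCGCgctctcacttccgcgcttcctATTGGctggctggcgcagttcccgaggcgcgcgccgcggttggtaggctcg
CDC7 (chr1:91500992-91501107, plus strand): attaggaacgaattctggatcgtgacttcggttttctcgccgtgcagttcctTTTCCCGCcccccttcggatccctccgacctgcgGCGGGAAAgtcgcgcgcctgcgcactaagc
TIPIN (chr15:66356717-66356785, minus strand): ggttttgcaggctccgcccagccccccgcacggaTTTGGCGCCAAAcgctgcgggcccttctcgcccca

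The next 2 stretches carry a CHR match (TTTGAA on either strand) together with CCAAT boxes, both in capitals. ASPM was listed higher and NUP37 lower, so this pairing of elements occurs on both sides of the comparison.
ASPM (chr1:197146695-197146819, minus strand): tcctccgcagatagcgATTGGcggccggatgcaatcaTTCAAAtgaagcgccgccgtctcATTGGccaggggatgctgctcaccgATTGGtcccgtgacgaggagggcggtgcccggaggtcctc
NUP37 (chr12:102120125-102120184, minus strand): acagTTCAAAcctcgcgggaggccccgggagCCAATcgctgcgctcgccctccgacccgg

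Capitals mark CCAAT boxes alone in the next 5 stretches, from 2 replication genes, the spindle gene PSRC1 and 2 p53 targets. GINS1 and MDM2 also hold an E2F match, which lies outside the stretches printed. In MDM2 the box is a palindrome that reads as CCAAT on both strands. The last stretch, from GAS2L3, is shown because it holds none of the E2F, CHR or CCAAT letters and is rich in A and T.
ORC6 (chr16:46689539-46689642, plus strand): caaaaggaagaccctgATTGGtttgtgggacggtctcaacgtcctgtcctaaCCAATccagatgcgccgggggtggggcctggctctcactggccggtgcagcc
GINS1 (chr20:25407573-25407672, plus strand): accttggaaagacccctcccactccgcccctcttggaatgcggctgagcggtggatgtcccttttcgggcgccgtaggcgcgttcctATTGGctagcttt
PSRC1 (chr1:109283187-109283245, minus strand): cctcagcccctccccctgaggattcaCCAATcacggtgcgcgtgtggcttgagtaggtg
CCNG1 (chr5:163437431-163437568, plus strand): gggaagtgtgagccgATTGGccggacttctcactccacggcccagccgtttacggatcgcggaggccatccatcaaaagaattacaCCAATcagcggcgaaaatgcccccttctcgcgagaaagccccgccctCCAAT
MDM2 (chr12:68808072-68808171, plus strand): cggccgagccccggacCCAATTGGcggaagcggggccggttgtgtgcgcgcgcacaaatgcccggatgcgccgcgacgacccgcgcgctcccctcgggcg
GAS2L3 (chr12:100593518-100593617, plus strand): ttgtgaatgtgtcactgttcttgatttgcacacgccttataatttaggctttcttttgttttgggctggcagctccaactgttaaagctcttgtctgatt

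Among the 31 genes, 14 were listed lower and 17 higher in the authors' deposited table, or 45.2% lower against 58.4% of all 858 genes. Their median log2 fold change was 0.12, against −0.12 over the authors' deposited table. The sizes were small: the median absolute log2 fold change was 0.32 (0.28 over the authors' deposited table), and 4 genes, DONSON, CDC25B, PRR11 and GAS2L3, reached 0.5, or 12.9% against 23.8% of the authors' deposited table. None reached 1. At an unadjusted p under 0.01, the authors' deposited table held 7 of the 31 genes (22.6%) and 191 of 858 (22.3%), which is 2.5% of the genes tested. PSRC1 was lower among these 7, and CDK6, TIPIN, PRIM1, DEPDC1, GAS2L3 and SHCBP1 were higher. How many of the 191 genes were lower was not counted.

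**Figure D1:**
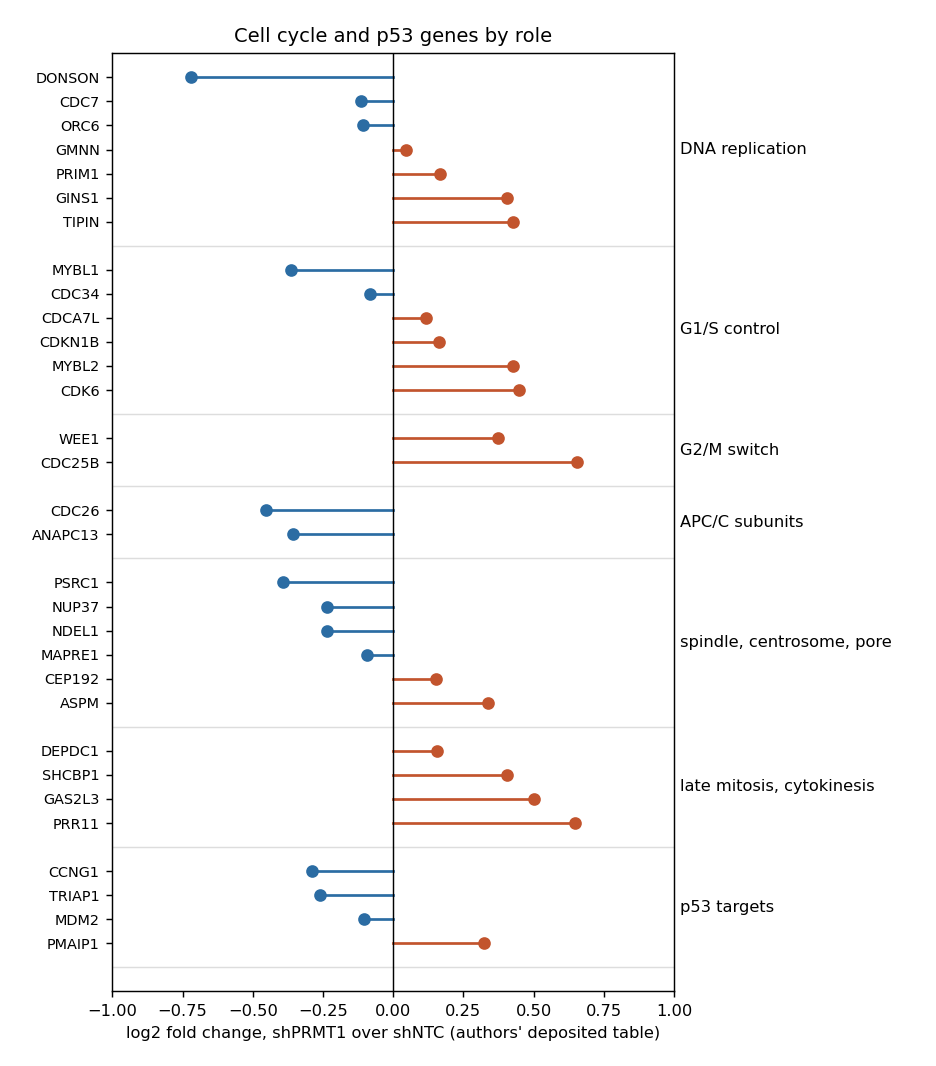
Plot of the log2 fold change of shPRMT1 over shNTC for each of the 31 genes, grouped by role, as the authors' deposited table gives it; each point is 1 gene, blue lower and orange higher, and no error is available. Both G2/M switch genes and all 4 late mitotic genes lie right of 0, both APC/C subunits left of it, and replication, G1/S and spindle genes lie on both sides.

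DNA replication genes were split, 3 lower and 4 higher. DONSON, a replisome protein that helps to load the replicative helicase and protects stalled forks, had the lowest value of all 31 in the authors' deposited table, a ratio of 0.607 (log2 fold change −0.72, p = 0.016). At origins, ORC6, a subunit of the origin recognition complex, was at −0.11 (p = 0.0315) on the log2 scale in the authors' deposited table. CDC7, the kinase that fires licensed origins, stood at −0.11 as well (p = 0.0275) in the authors' deposited table. GMNN encodes geminin, which blocks CDT1 so that origins are not licensed again, and its log2 fold change of 0.05 (ratio 1.03, p = 0.0157) was the smallest of the 31 in the authors' deposited table. ORC6, CDC7 and GMNN thus had the smallest absolute log2 fold changes of the 7 replication genes. DONSON, which helps to load the helicase, had the largest, so small changes were not common to all genes that act at origins.

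The other 3 replication genes had positive log2 fold changes. TIPIN, the partner of TIMELESS in fork protection and checkpoint signalling, had a log2 fold change of 0.43 (ratio 1.34, p = 0.00786) in the authors' deposited table. GINS1, a subunit of the GINS complex of the helicase, was at 0.41 (ratio 1.33, p = 0.0164) in the authors' deposited table. PRIM1, the catalytic subunit of primase, was at 0.17 (p = 0.00883) in the authors' deposited table. The nonmember POLE4, a small subunit of DNA polymerase epsilon, was at −0.54 (p = 0.0154) in the authors' deposited table, and DONSON, given above, also acts at forks, so fork genes were listed on both sides.

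Around G1/S, in a group that here includes the MYB genes MYBL1 and MYBL2, 4 of 6 genes were higher. CDK6, which with D cyclins phosphorylates RB, had a log2 fold change of 0.45 (ratio 1.36, p = 0.00737) in the authors' deposited table. CDKN1B encodes p27, an inhibitor of cyclin E and A complexes, and was at 0.16 (ratio 1.12, p = 0.0482) in the authors' deposited table. A kinase that drives G1 and an inhibitor that holds it were therefore listed in the same direction. MYBL2, the B-MYB factor that joins MuvB to switch on G2/M genes, was at 0.43 (ratio 1.34, p = 0.0463) in the authors' deposited table. MYBL1, its relative A-MYB, was at −0.36 (ratio 0.777, p = 0.0131) in the authors' deposited table. The 2 MYB genes were thus on opposite sides, and the difference between them was not tested. CDCA7L, a MYC-interacting relative of the E2F target CDCA7, was at 0.12 and CDC34, the ubiquitin-conjugating enzyme of SCF ligases, at −0.08 in the authors' deposited table. SKP1, the adaptor of those same SCF ligases and no member, stood at −0.07 (p = 0.004) in the authors' deposited table.

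At the G2/M switch both genes were higher, though they act against each other on CDK1. CDC25B, the phosphatase that starts CDK1 activation, had the highest value of the 31 in the authors' deposited table, a ratio of 1.58 (log2 fold change 0.66, p = 0.0404). WEE1, the kinase that places the inhibitory phosphate, was at 0.37 (ratio 1.3, p = 0.0345) in the authors' deposited table.

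Both listed subunits of the APC/C, a large ubiquitin ligase, were lower. CDC26, which stabilises the CDC16 subunit, had a ratio of 0.73 (log2 fold change −0.45, p = 0.0394) in the authors' deposited table. ANAPC13, another small subunit, had a ratio of 0.781 (log2 fold change −0.36, p = 0.0244) in the authors' deposited table. A wider list of 29 APC/C and spindle checkpoint genes had these 2 (6.9%) in the authors' deposited table, which held 11.2% of all genes tested. How many of the 29 were tested is unknown, so the 2 shares cannot be ranked. Of all genes in the authors' deposited table, 58.4% were lower. The coactivators CDC20 and FZR1 and the checkpoint kinases BUB1 and TTK were not in the authors' deposited table.

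Of 6 genes of the spindle, centrosome and mitotic nuclear pore, 4 were lower. PSRC1, a microtubule-binding protein that recruits a depolymerising kinesin, had the smallest p of the 31 (p = 0.000283, rank 5 of 858) in the authors' deposited table, with a log2 fold change of −0.39 (ratio 0.762). NDEL1, which regulates dynein at the centrosome, was at −0.23 (p = 0.0107) in the authors' deposited table. NUP37, a subunit of the pore complex that moves to kinetochores in mitosis, was at −0.24 (p = 0.0352) in the authors' deposited table. MAPRE1, the plus-end protein EB1, was at −0.09 (p = 0.0303) in the authors' deposited table. ASPM, which focuses spindle poles, was at 0.34 (p = 0.0369) and CEP192, the scaffold that recruits PLK4 and Aurora A to centrosomes, at 0.15 (p = 0.0178) in the authors' deposited table. Further listed genes of the wider spindle list were PAFAH1B1, the LIS1 protein that works with NDEL1, at −0.25, the kinesin KIF18A at 0.32 and the plus-end protein CLASP1 at 0.27 in the authors' deposited table. NDEL1 and its partner PAFAH1B1 were listed at nearly equal log2 values.

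The 4 genes grouped here under late mitosis and cytokinesis were all higher, although PRR11 is not confined to that stage. PRR11, a proline-rich protein expressed from S phase to mitosis, had a ratio of 1.57 (log2 fold change 0.65, p = 0.0167) in the authors' deposited table. GAS2L3, which links actin and microtubules at the midbody and is a target of the MYB-MuvB complex, had a ratio of 1.42 (log2 fold change 0.5, p = 0.00678) in the authors' deposited table. SHCBP1, a midbody protein, was at 0.41 (ratio 1.33, p = 0.00673) in the authors' deposited table. DEPDC1, a mitotic protein, had the second smallest p of the 31 in the authors' deposited table (p = 0.00219) at a ratio of 1.12 (log2 fold change 0.16). CEP55, the midbody scaffold of abscission and no member, was at 0.18 (p = 0.00387) in the authors' deposited table. With CEP55, 5 of 25 genes of the wider list (20%) were listed, all higher, against 11.2% of all genes tested listed and 4.67% listed higher. Because 4 of these 5 were known to be listed when the list was written, nothing is read from this share, and MKI67, TOP2A, ANLN and ECT2 were not in the authors' deposited table.

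**Figure D2:**
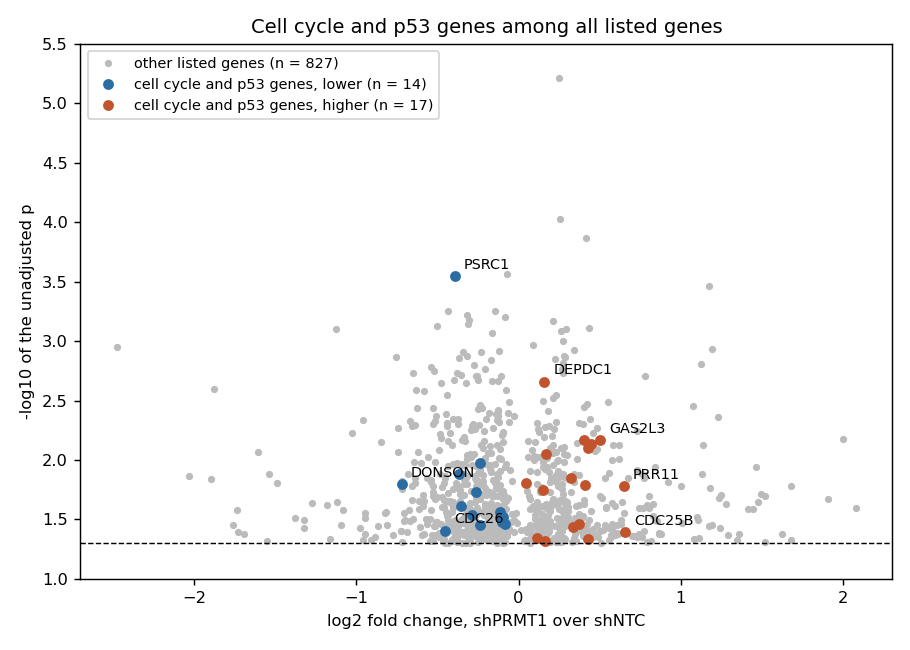
Scatter plot of log2 fold change against −log10 of the unadjusted p for all 858 genes of the authors' deposited table; grey points are the other 827 genes, blue and orange points the 14 lower and 17 higher genes described here, and the dashed line marks p = 0.05. PSRC1 stands highest of the 31, DONSON farthest left and CDC25B farthest right, and all 31 lie inside the range of the other genes.

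Of the p53 targets, 3 of 4 were lower. CCNG1, cyclin G1, had a log2 fold change of −0.29 (ratio 0.819, p = 0.0291) in the authors' deposited table. TRIAP1, a mitochondrial inhibitor of apoptosis induced by p53, was at −0.26 (p = 0.0187) in the authors' deposited table. MDM2, the ubiquitin ligase of p53, was at −0.10 (p = 0.0335) in the authors' deposited table. PMAIP1 encodes NOXA, a BH3-only protein that promotes apoptosis and is also induced by ATF4, and was at 0.32 (ratio 1.25, p = 0.0143) in the authors' deposited table. The DNA damage gene GADD45A, no member, was at −0.32 (p = 0.0398) in the authors' deposited table. The survival gene TRIAP1 and the death gene PMAIP1 were on opposite sides, and CDKN1A, BAX and BBC3 were not in the authors' deposited table.

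The 31 genes were also read against 9 wider lists of cell cycle and p53 genes, written with the 31 genes known and holding all of them. Of 260 distinct genes, 38 were in the authors' deposited table (14.6% against 11.2% of the genes tested), 18 lower and 20 higher. The lists were written around genes already known to be in the authors' deposited table, so no excess can be read from this share. The 7 listed genes that are no members were 4 lower and 3 higher in the authors' deposited table. By list, the counts were 5 of 28 for origin licensing (3 lower), 3 of 28 for the fork (1 lower), 5 of 36 for G1/S (2 lower), 2 of 9 for MuvB and MYB regulators (1 lower) and 2 of 21 for G2/M (0 lower) in the authors' deposited table. For the spindle list the count was 9 of 50 (5 lower) and for p53 targets 5 of 35 (4 lower) in the authors' deposited table. The other list genes had p of 0.05 or more or were not tested, which cannot be separated here. Of 14 markers of leukocytes, fibroblasts and endothelium, COL1A2 (−0.51) and CDH5 (0.81) were in the authors' deposited table; their part in the results was not tested.

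**Figure D3:**
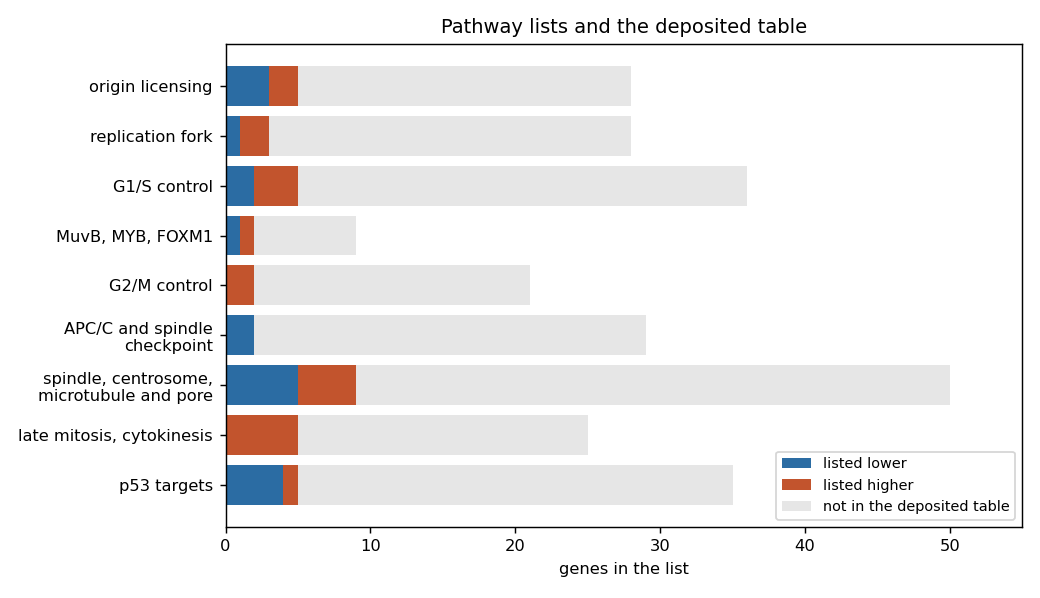
Number of genes in each of the 9 wider lists, split into those listed lower (blue) and higher (orange) in the authors' deposited table and those not in it (grey). Every list has most of its genes outside the table, and the spindle list holds the most listed genes, 9 of 50.

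Promoter letters played no part in the choice of the genes, but the genes were chosen for roles that E2F, CHR and CCAAT elements are known to time. The motifs were also chosen after the matches were seen, so no excess can be read from the shares below. RefSeq windows, 250 bases before to 50 after a start, were matched by symbol for 28 of the 31 genes, in 41 windows, and 8 genes had more than 1 window. A gene was counted where any of its windows held the letters, so a gene with more windows had more chances of a match. All 27305 genes with a window had 35116 windows together, and the shares below were not adjusted for window number. An E2F match occurred in 6 of 28 genes (21.4%), against 6.38% of 627 matched genes of the authors' deposited table, 5.4% of protein-coding genes and 3.99% of all 27305 genes with a window. These were GMNN, CDC7, TIPIN, GINS1, MDM2 and CEP192, and all but GINS1 and CEP192 had more than 1 window. A CCAAT box on either strand was found in 17 genes (60.7%), against 44.0% of matched genes of the authors' deposited table and 39.7% of all genes.

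A CHR match was found in 7 genes (25%), against 14.8% of matched genes of the authors' deposited table and 18.2% of all genes. Each of these 7 genes also held a CCAAT box at any distance, so 25% of the 28 genes held both motifs. Both motifs were held by 8.93% of matched genes of the authors' deposited table and 8.37% of all genes. The 7 genes were DEPDC1, ASPM, PRR11, SHCBP1, CEP192, NUP37 and MAPRE1, of spindle and late mitotic roles, 5 listed higher and 2 lower. The 2 elements need not lie side by side: in MAPRE1 the CHR match began at base 9 from the start and the CCAAT box at base −209. The GC box (GGGCGG) was in 22 genes (78.6%), close to the 79.1% of matched genes of the authors' deposited table, and the p53 consensus decamer was in 2 genes, CDC7 and TIPIN (7.14%, against 8.06% of all genes). None of the p53 targets held that decamer in these windows. Only exact matches to the consensus were counted, and bases outside the windows were not searched. The absence therefore does not show that these genes lack p53 sites. The median GC content was 65.1%, against 65.7% for matched genes of the authors' deposited table, and GAS2L3 had the lowest, 33.3%. A match is a description of letters and not evidence of binding.

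The motifs occurred on both sides of the comparison. An E2F match was in 4 of 16 higher and 2 of 12 lower genes, a CCAAT box in 11 of 16 and 6 of 12, and CHR with CCAAT in 5 of 16 and 2 of 12. No test of these counts was made. Among genes with an E2F match, log2 fold changes in the authors' deposited table ranged from −0.11 for CDC7 to 0.43 for TIPIN.

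**Figure D4:**
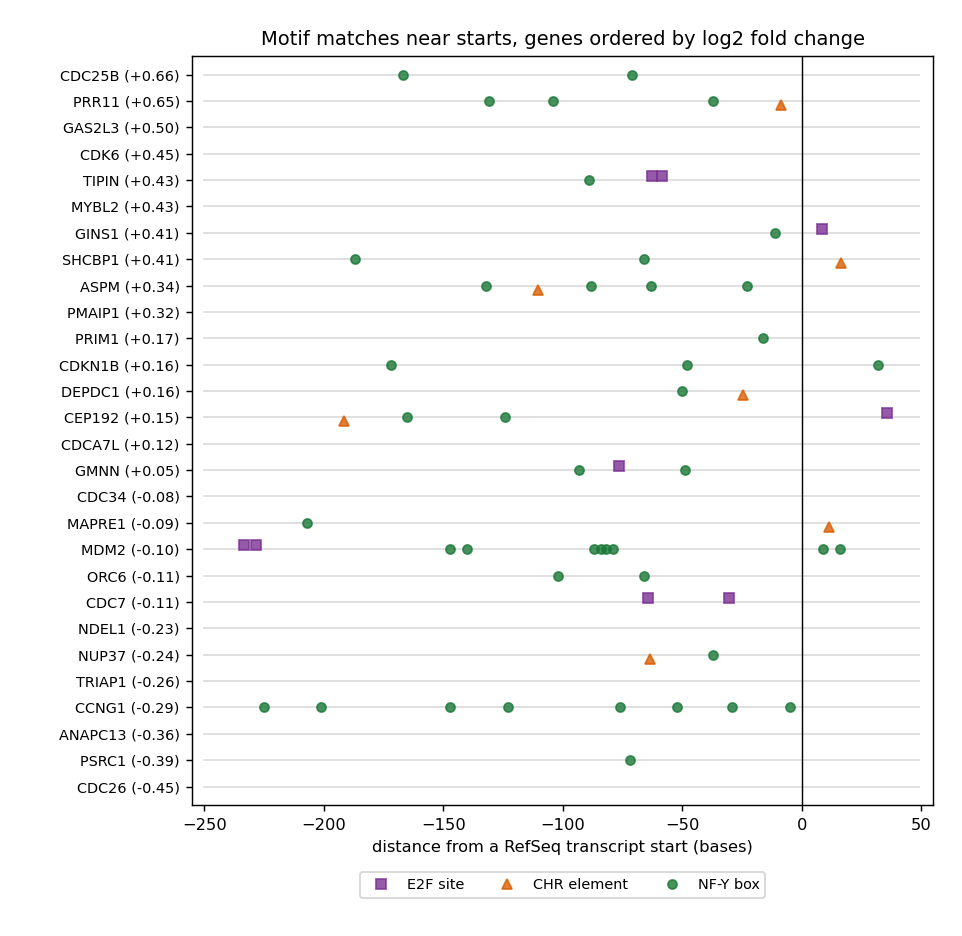
Positions of E2F, CHR and NF-Y (CCAAT) letter matches relative to RefSeq transcript starts for 28 genes, ordered by log2 fold change (in brackets); where a gene has several windows, each match is drawn once per window, so the same site can appear more than once. CHR triangles occur in 7 genes, all of which also hold an NF-Y box.

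The median transcript length was greater for the higher genes than for the lower genes. The longest annotated transcript had a median of 2352 nt for the 14 lower genes, from 872 nt for CDC26 to 12633 nt for MDM2. For the 17 higher genes the median was 3249 nt, from 1262 nt for GMNN to 11612 nt for CDK6. Over the authors' deposited table the medians were 2823 nt (497 lower genes) and 4436 nt (349 higher genes). Of the 10 genes under 2000 nt, 6 were lower, where the authors' deposited table had 69.2% lower. Between 2000 and 4000 nt, 6 of 14 genes were lower, where the authors' deposited table had 69.4%. At 4000 nt or more, 2 of 7 genes were lower (MDM2 and MYBL1), where the authors' deposited table had 43.1%, so its lower share differed in the longest class and was nearly equal in the shorter classes. Across the 31 genes, Spearman's rho between length and log2 fold change was 0.34, and Pearson's r on log2 length was 0.32, a description over genes that share the same libraries. The part of length in the directions was not tested.

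**Figure D5:**
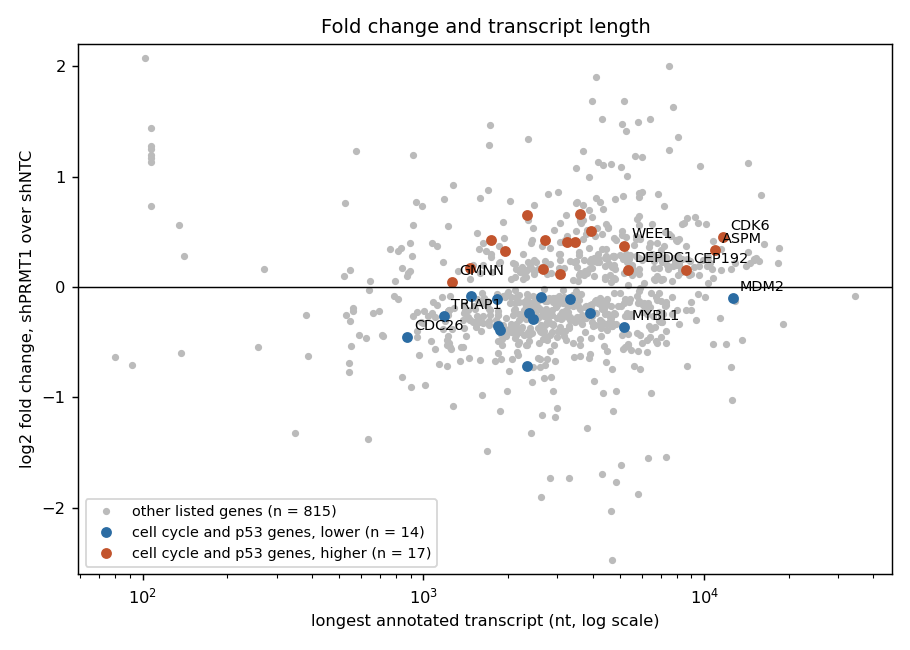
Plot of the log2 fold change against the longest annotated transcript (log scale) for 846 genes matched to an annotation; grey points are other genes of the authors' deposited table, blue and orange points the lower and higher genes described here. CDC26, the shortest of the 31 at 872 nt, lies below 0, and CDK6 and ASPM, at 11612 and 10887 nt, lie above it, while MDM2, the longest, lies below.

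Shared sequence limits some of these values. Exons of 12 of the 31 genes overlap those of another annotated gene that is no pseudogene, 6 of 14 lower and 6 of 17 higher genes, and for 11 the partner lies on the opposite strand. The strand setting of the authors' counting is not given in the sources used here, so reads of such partners may not be told apart. Among the 3 lowest genes this concerns DONSON (partner SON) and CDC26 (partner PRPF4), and ANAPC13 overlaps CEP63; none of these partners was in the authors' deposited table. Among the higher genes, PRIM1 overlaps NACA and PRR11 overlaps AC099850.2 on the same strand, and CDK6, CDCA7L, WEE1 and DEPDC1 also have partners. MAPRE1 has 2 annotated pseudogenes of its name, and CCNG1 and TRIAP1 have 1 each, so their values are uncertain to the extent that reads were shared.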

How the data were processed

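RNA of 4 MiaPaca-2 samples (2 shPRMT1, 2 shNTC) was sequenced from total RNA libraries, per the labels' protocols, which also describe a chromatin step that does not belong to RNA. Per the submitters' processing notes, edgeR 3.36.0, StringTie 2.2.1, HISAT2 2.2.1, Trim Galore 0.6.7 and deepTools were used with hg19, with no role or order given. The authors' deposited table gives a linear ratio (fold change) and its log2 value per gene. The authors also deposited an unadjusted p-value and an adjusted p-value (q-value); which test, normalization and filter gave them was not given in the sources used here. Depth per sample is unknown, so no interval is given.

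The count model foreseen for tables of single samples was not used, because the deposited unit is a comparison. No test was run. The 31 genes and the gene lists were chosen with earlier results of these data known. The rule for named genes took the 31 genes, PRMT1 and every listed gene of the lists; the further genes of the closing section were chosen by symbol after the values were seen, and genes said not to be in the authors' deposited table were named after it was read. How many genes the authors tested was recovered from runs of equal adjusted p (52 of 53 runs gave 7640 within 0.01), a step tested on simulated data for shPRMT1 against shNTC (20 of 20 tables). List genes were matched by symbol and synonym. Transcript lengths, exons and pseudogenes came from GENCODE 29 (846 of 858 genes matched by identifier), and promoters from RefSeq (GRCh38.p14). Motifs were searched on both strands, and the motifs and printed stretches were chosen after the values and matches were seen, not from the ends of the fold change range as first set. Python 3.11.15, numpy 2.4.6, pandas 2.3.3 and matplotlib 3.10.9 were used. Some items are not reported here. Alternatives were an unadjusted p under 0.01, an absolute log2 value of 0.25 or more, a shift of all log2 values by 0.1, and matching by symbol alone.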

Additional observations from a re-analysis of the deposited data

How the results depend on the processing

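At an unadjusted p under 0.01 in the authors' deposited table, 1 of 7 genes was lower, the median log2 fold change was 0.41 and 9 genes of the wider lists were left. With absolute log2 values of 0.25 or more, 7 of 18 genes were lower, the median was 0.36 and 22 list genes were left. Both thresholds keep fewer genes by construction. The lower share of all listed genes was not counted at either threshold, so no shift in direction can be read from these counts. With every log2 fold change raised by 0.1, 12 of 31 genes were lower, the median was 0.22 by construction, and CDC34 and MAPRE1 changed side. Matching by symbol alone left the 38 list genes as they were. No paired analysis was possible because single-sample values were not analysed here, and for the same reason leaving out each replicate was not run. Unknown depth limits all of these values, since a small ratio of a lowly expressed gene cannot be told from counting error.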

Other observations

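Beyond the 31 genes, symbols that begin with CDC, CDK, CCN, CENP, CEP, KIF, NUP, SMC or TUB were counted, a choice made after the values were seen. The authors' deposited table holds 22 such genes, 10 of them among the 31. Of the other 12, 3 were lower and 9 higher in the authors' deposited table, with the share of lower genes over the whole table at 58.4%. CENPK, an inner kinetochore subunit, was among the higher ones, at 0.30 on the log2 scale in the authors' deposited table. KIF20B, a kinesin of cytokinesis, was at 0.28 and CDKN3, a phosphatase of CDK1 and CDK2, at 0.40 (p = 0.044) in the authors' deposited table. SMC5, of the SMC5/6 genome stability complex, was at 0.25, and the pore proteins NUP155 and NUP98 were at 0.21 and 0.06 in the authors' deposited table. CDK2AP2 was at 0.88 and its relative CDK2AP1 at −0.35, so these paralogs were on opposite sides in the authors' deposited table. The tubulin gene TUBB4B was at −0.14 and CCNL2, a cyclin of splicing, at −0.16 in the authors' deposited table. Adjusted p was 0.364 or more for all 12 in the authors' deposited table.

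Of the 31 genes, 4 lie on chromosome 20 (GINS1, MYBL2 and CDC25B higher, MAPRE1 lower), which holds 2.72% of the annotated genes of the authors' deposited table, and 6 lie on chromosome 12, which holds 6.62%. Chromosome 1 also has 4, and holds 9.57%. The genes were counted on every chromosome and these chromosomes are named for their counts, so no regional excess can be read from them.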
